A study of Mus musculus with 24 samples.

Results

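The difference between the effect of pyridostigmine in injured hearts and its effect in uninjured hearts was measured across all expressed genes. It is the interaction of injury and drug, (DTR_PYR − DTR_PBS) − (WT_PYR − WT_PBS) on the log2 scale. Of the 46078 genes in the deposited count table, 15456 had more than 0.5 CPM (reads of a gene relative to the size of its library) in at least 6 libraries, and all of these entered the test, in 24 of 24 libraries. A log2 interaction of 0 means that the drug changed a gene by the same factor in both kinds of heart. A positive value means that the ratio of drug to vehicle was higher in the injured hearts, whether through a higher level there, a lower level in the uninjured hearts, or both.

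RNA came from the apex of the ventricles of male C57BL/6 mice aged 10 weeks at day 5, and there were 4 groups of 6 libraries. WT_PBS hearts received no diphtheria toxin and the vehicle, PBS, and WT_PYR hearts received no toxin and pyridostigmine. DTR_PBS hearts had an injury made with diphtheria toxin and the vehicle, and DTR_PYR hearts had that injury and pyridostigmine. DTR usually stands for diphtheria toxin receptor, a protein that lets this toxin enter mouse cells. The sources used here do not name the cells that carried it, the drug's dose or the toxin's schedule. In the labels the toxin and the DTR name move together, so "injury" stands for both, and no group had the toxin or the receptor alone. Each title carried its own animal tag, and each library was taken as 1 animal; nothing else in the labels says that the animals were kept separately.

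Pyridostigmine blocks acetylcholinesterase and butyrylcholinesterase, the enzymes that break down acetylcholine, and so prolongs signalling by the vagus nerve. In the heart acetylcholine acts mainly on the muscarinic M2 receptor, which slows the sinus node and dampens the response to noradrenaline. Through nicotinic receptors on macrophages it is also known to restrain the release of inflammatory cytokines. Loss of cardiomyocytes is followed by clearance of dead cells by macrophages, by deposition of matrix by fibroblasts, and in the surviving cardiomyocytes by a return to fetal genes and a loss of genes for fatty acid use and ion channels. The interaction asks whether the drug acted on these programmes differently once the heart had been injured.

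The heart muscle gene Myh6 and the ventricular gene Myl2 were high in the WT libraries. In the DTR libraries Myh6 was between 4290 and 30463 CPM and Myl2 between 1072 and 3333 CPM. Myh6, the main myosin heavy chain of the adult mouse heart, was between 26208 and 37253 CPM in all 12 WT libraries, and Myl2, the ventricular regulatory light chain, between 6854 and 9610.0 CPM. The 4 atrial markers tested summed to 12.4 to 42.6 CPM over all libraries, and the atrial genes Sln and Bmp10 were below the filter. Total counts ran from 1.88 to 37.8 M reads per library. The interaction of the library totals had an adjusted p of 0.597, that of the share of mitochondrially encoded reads 0.211 and that of the share held by the top 10 genes 0.393 (exact two-sided permutation within genotype, Benjamini-Hochberg over 3 measures). Because these are pieces of whole tissue, fewer cells of a type and less RNA per cell cannot be told apart in any value that follows.

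The 6 DTR_PYR libraries did not lie together, and the interaction rests on them. On the first principal component of log2 CPM, which held 44.2% of the variance, the 12 WT libraries lay between −57.2 and −35.1 and the 6 DTR_PBS libraries between 30.3 and 114. The scores of DTR_PYR 1, 2 and 3 were 59.3, 104 and 41.0, within the DTR_PBS range, and those of DTR_PYR 4, 5 and 6 were −35.4, −25.6 and −20.9, beside the WT libraries. Hbegf, a growth factor of the epidermal growth factor family, was at 172, 155 and 118 CPM in DTR_PYR 1 to 3. In DTR_PYR 4 to 6 it was at 19.3, 23.3 and 25.8 CPM. It was at 105 to 167 CPM in DTR_PBS and 18.3 to 26.8 CPM in WT. Whether reads from the receptor that the DTR name stands for were counted at Hbegf was not tested. The levels of Hbegf in DTR_PYR 4 to 6 thus overlapped those of hearts without toxin. On the second component, which held 12.7%, WT_PBS 6 at −64.2 and WT_PYR 1 at 68.3 were the extremes. A DTR_PYR median can therefore lie at a level that none of its libraries had. Results are given with all 24 libraries first, and the median of each gene list described is then given without DTR_PYR 4, 5 and 6.

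**Figure D1:**
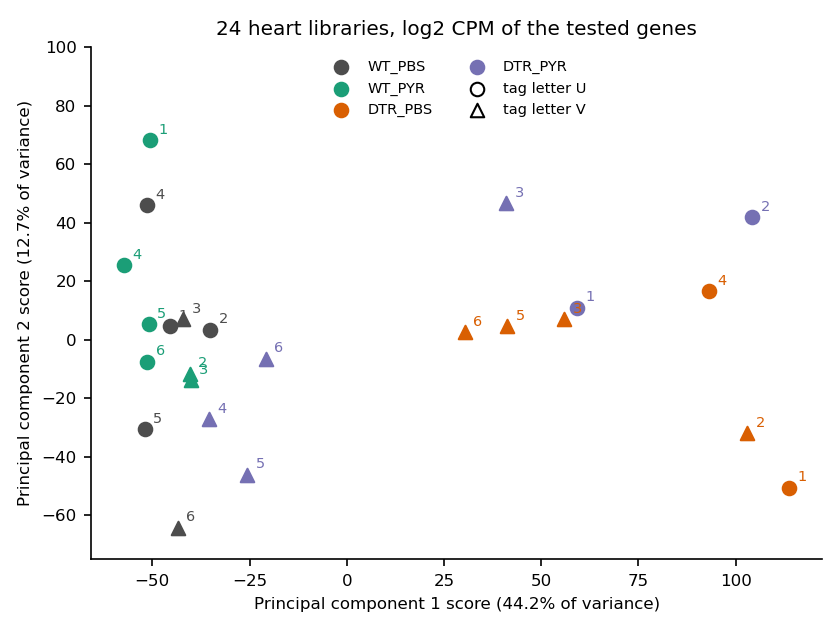
Scores of the 24 libraries on the first and second principal components of log2 CPM over the 15456 tested genes, colored by group, numbered by replicate, with circles for animal tags ending in U and triangles for V. DTR_PYR 4, 5 and 6 lie next to the WT libraries on the first component, and DTR_PYR 1, 2 and 3 lie among the DTR_PBS libraries.

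Animal tags ended in U or V, letters that no label explains, and they were spread unevenly over the groups. There were 4 U and 2 V libraries in either WT group, and 2 U and 4 V in either DTR group. DTR_PYR 1 and 2 were the U libraries of their group, and DTR_PYR 4, 5 and 6 were all V. Within DTR_PYR the tag letter and the position on the first component therefore cannot be told apart in all but DTR_PYR 3, the V library that lay with DTR_PBS. In DTR_PBS the V libraries, replicates 2, 3, 5 and 6, had scores of 103, 55.9, 41.3 and 30.3. The V libraries of the WT groups lay among the other WT libraries. Whether the letter had a part in the position of DTR_PYR 4, 5 and 6 was not tested. The interaction was also estimated within each letter in 1 model with 8 coefficients, and those values are given as the U and V values.

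No gene had an interaction that passed the test across all expressed genes. Of the estimates themselves, genes of mitochondrial energy metabolism and of cardiac ion handling had mostly positive interactions, and genes of matrix, macrophages, cytokines and cell division mostly negative ones. By the edgeR quasi-likelihood test, 0 of 15456 genes had a Benjamini-Hochberg adjusted p under 0.05 (0%), and the smallest adjusted p was 0.429. At an unadjusted p under 0.05 there were 1231 genes, 902 of them with a positive interaction (5.84% of the genes tested) and 329 with a negative one (2.13%). At an unadjusted p under 0.001 there were 26 positive and 7 negative genes.

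The other tools gave few calls or none. The DESeq2 Wald test called 9 genes, with 1364 at an unadjusted p under 0.05, while limma voom called 0 with 2255 (1141 positive and 1114 negative). With a weight for each group limma voom called 0 with 2415 (1172 positive and 1243 negative). The DESeq2 calls were Kcnv2, Acot1, mt-Ta, mt-Tc, mt-Ty, mt-Co3 and BC021891 with positive interactions, and Panx1, a membrane channel that releases ATP, and Tnfrsf23, a decoy receptor for a death ligand, with negative ones. Their DESeq2 adjusted p-values ran from 0.0317 to 0.0484. BC021891, Panx1 and Tnfrsf23 fell outside the rule for naming genes and were named after their values were seen, and their log2 interactions by edgeR were 2.28, −1.95 and −2.29.

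Across the 15456 genes the median log2 interaction was 0.03, 53.2% of genes lay above 0, and the outer deciles were at −0.67 and 0.69. Scaling by total counts alone, in place of the trimmed mean of M-values, moved the median of all genes to −0.18 and left 33.6% of genes above 0, and the genes at an unadjusted p under 0.05 became 384 positive and 715 negative. The median distance from the estimate to the end of its 95% interval was 0.74 on the log2 scale, and 0.58 over the 10206 genes whose mean reached 5 CPM. The interval lay wholly between −1 and 1 for 6693 genes (43.3%) and reached past −1 or 1 for the other 8763. There were 1560 genes with an estimate beyond −1 or 1, 750 positive and 810 negative.

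The effects from which the interaction is built were themselves without calls. Pyridostigmine in injured hearts gave 0 genes at an adjusted p under 0.05 (0%; smallest 0.1), with 2991 at an unadjusted p under 0.05, and in uninjured hearts 0 genes (0%; smallest 0.891), with 481. The median absolute log2 effect of the drug was 0.295 in the injured and 0.166 in the uninjured hearts. The spread within a group was largest in DTR_PYR: the median over genes of the SD of log2 CPM was 0.352 in WT_PBS, 0.334 in WT_PYR, 0.432 in DTR_PBS and 0.509 in DTR_PYR, and DTR_PYR had the largest SD of the 4 groups for 7313 genes (47.3%).

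**Figure D2:**
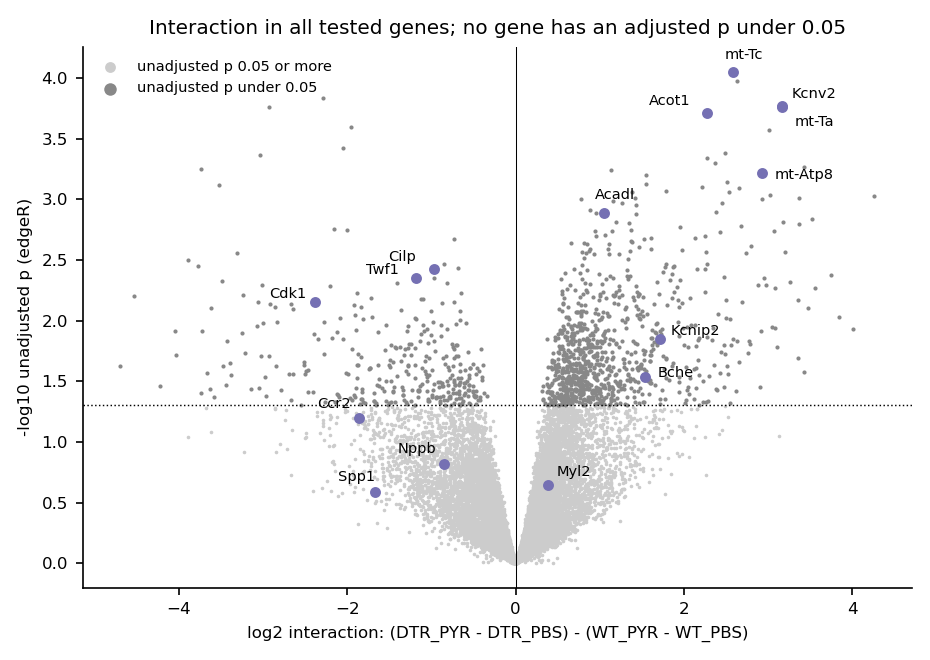
The log2 interaction of each of the 15456 tested genes (horizontal axis) against −log10 of its unadjusted p by edgeR (vertical axis), with the dotted line at an unadjusted p of 0.05. More of the genes above that line lie to the right (902) than to the left (329), and 0 have an adjusted p under 0.05.

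Among genes of at least 5 CPM, the 10 smallest p-values with a positive interaction were those of Kcnv2, Acot1, Txndc16, Gmnn, Atcay, the mitochondrial transfer RNAs mt-Tc, mt-Ty, mt-Ta and mt-Tn, and mt-Atp8, with adjusted p-values of 0.429 to 0.464. They came from 2 patterns of levels. Kcnv2, Acot1 and Atcay were low in DTR_PBS, with DTR_PYR medians between those of DTR_PBS and the WT groups. For Kcnv2 and Atcay none of the DTR_PYR libraries lay near that median. In both genes DTR_PYR 1, 2 and 3 lay within the DTR_PBS range and DTR_PYR 4, 5 and 6 within the WT range. The mitochondrial transcripts had their highest group median in WT_PBS and were high in some DTR_PYR libraries.

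Kcnv2 encodes a silent potassium channel subunit that modifies the channels it joins. It lies on chromosome 19 at 27322588 to 27337179 (GRCm38). Its level was 7.91 CPM at the lowest, 12.3 at the median and 18.8 at the highest in WT_PBS, 3.89, 10.3 and 11.7 in WT_PYR, 0.124, 0.654 and 1.25 in DTR_PBS, and 0.589, 3.43 and 7.4 in DTR_PYR. The DTR_PBS libraries lay wholly below both WT groups, and the DTR_PYR libraries were spread from within the DTR_PBS range up to within the WT_PYR range. DTR_PYR 1, 2 and 3 were at 0.589, 0.592 and 0.780 CPM and DTR_PYR 4, 5 and 6 at 6.80, 7.4 and 6.09 CPM. The log2 interaction was 3.16 (95% interval 1.68 to 4.65, edgeR adjusted p 0.429), from a drug effect of 2.73 in injured and −0.43 in uninjured hearts, and it was 1.01 within U and 3.56 within V libraries.

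Acot1, a cytosolic thioesterase that releases free fatty acids from their coenzyme A esters, lies on chromosome 12 at 84009502 to 84017670. Its lowest, median and highest levels were 7.62, 12.1 and 16.0 CPM in WT_PBS, 6.73, 7.43 and 16.6 in WT_PYR, 1.33, 2.04 and 3.75 in DTR_PBS, and 3.38, 6.75 and 22.4 in DTR_PYR. DTR_PBS lay below both WT groups without overlap, and 5 of the 6 DTR_PYR libraries lay above the DTR_PBS maximum. The log2 interaction was 2.27 (1.19 to 3.35), of which 1.92 was the drug effect in injured hearts, and it was 1.80 within U and 2.42 within V libraries. Acot1 has a close paralog, Acot2, beside it, and no source used here says how reads shared by both were counted.

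The other protein-coding genes of this group had smaller values. Atcay, an adaptor protein best known from neurons, had a median of 11.8, 8.08, 1.44 and 5.01 CPM in WT_PBS, WT_PYR, DTR_PBS and DTR_PYR. DTR_PYR 1, 2 and 3 were at 1.91, 1.48 and 1.17 CPM and DTR_PYR 4, 5 and 6 at 9.50, 8.11 and 8.17 CPM. The log2 interaction of Atcay was 2.21 (1.01 to 3.41). Gmnn, the inhibitor of replication licensing geminin, had medians of 19.6, 14.7, 6.79 and 14.3 CPM and an interaction of 1.55 (0.72 to 2.39). Txndc16, a thioredoxin-domain protein of the endoplasmic reticulum, had an interaction of 1.13 (0.54 to 1.73). In each of the 3 genes the drug effect was positive in injured and negative in uninjured hearts.

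The mitochondrial transfer RNAs mt-Ta, mt-Tn, mt-Tc and mt-Ty are encoded side by side on 1 strand of the mitochondrial genome, from 5018 to 5326, and carry alanine, asparagine, cysteine and tyrosine to mitochondrial ribosomes. mt-Tc was at 7.41, 21.3 and 40.3 CPM at the lowest, median and highest in WT_PBS, at 4.24, 6.08 and 9.0 in WT_PYR, at 4.54, 6.25 and 9.15 in DTR_PBS and at 3.51, 7.81 and 20.8 in DTR_PYR. WT_PBS overlapped each of the other groups, and WT_PYR and DTR_PBS covered much the same range. The log2 interaction of 2.59 (1.44 to 3.74) came more from the uninjured hearts, where the drug effect was −1.90, than from the injured ones, where it was 0.69. The interactions of mt-Ta, mt-Ty and mt-Tn were 3.17, 2.63 and 2.52. The libraries were made from polyadenylated RNA without strand information, so counts over these short genes include any longer mitochondrial transcript that covers them.

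In the negative direction the smallest p-values belonged to Cilp, Twf1, Usp53, March3, Dcbld2, Smim3, Yeats2, Galnt16, Ppapdc1b and Neurl1b, with log2 interactions of −0.65 to −1.18 and edgeR adjusted p-values of 0.512 to 0.563. Cilp, a matrix protein that binds transforming growth factor beta, lies on chromosome 9 at 65265180 to 65280605. It was at 6.76, 7.41 and 10.3 CPM at the lowest, median and highest in WT_PBS, 6.02, 8.76 and 13.8 in WT_PYR, 27.0, 38.9 and 51.5 in DTR_PBS and 15.9, 21.2 and 33.1 in DTR_PYR. Both DTR groups lay above both WT groups, and they overlapped each other. Its interaction was −0.97 (−1.59 to −0.34), with a drug effect of −0.73 in injured and 0.23 in uninjured hearts. Twf1, which caps actin filaments, had medians of 9.11, 11, 26.7 and 12.4 CPM in WT_PBS, WT_PYR, DTR_PBS and DTR_PYR and an interaction of −1.18 (−1.96 to −0.40). Usp53 at −1.13, the ubiquitin ligase March3 at −1.10 and the receptor-like protein Dcbld2 at −0.85 also had their highest group median in DTR_PBS. Yeats2, a subunit of a histone acetyltransferase complex, differed in kind, with medians between 14.2 and 17.0 CPM in all 4 groups and an interaction of −0.73.

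**Figure D3:**
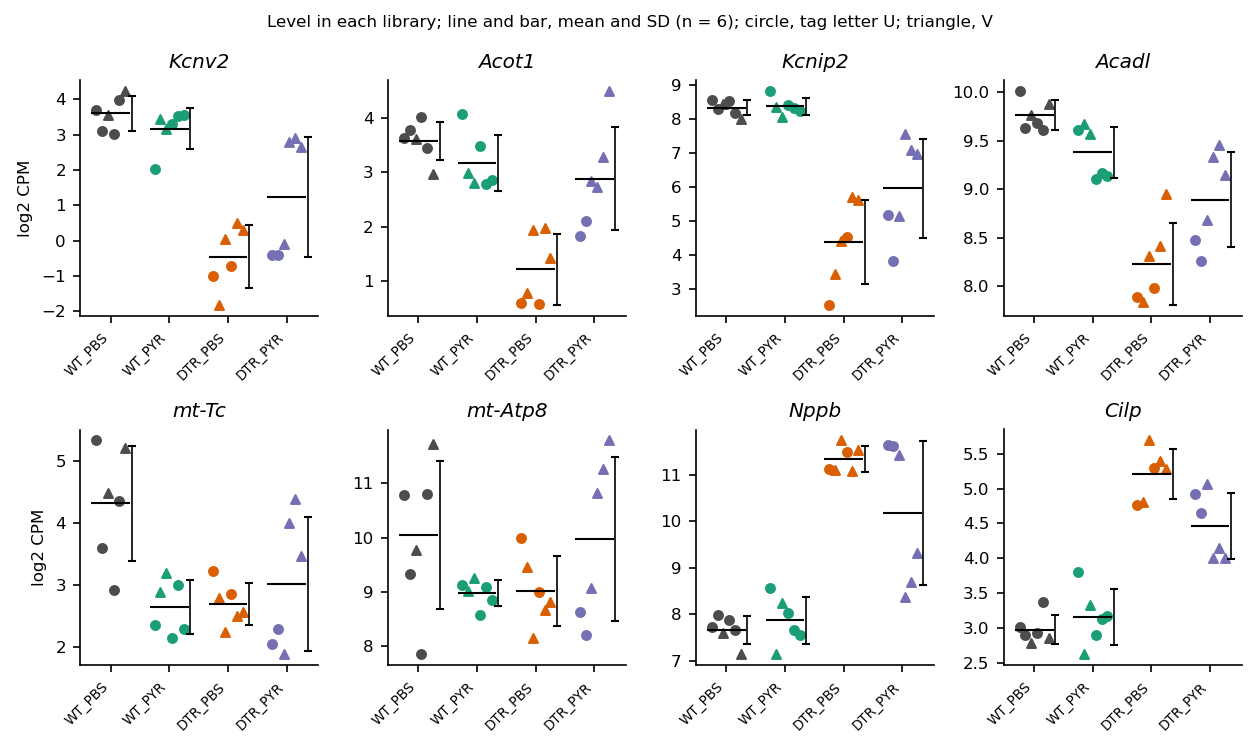
The log2 CPM of Kcnv2, Acot1, Kcnip2, Acadl, mt-Tc, mt-Atp8, Nppb and Cilp in each of the 24 libraries by group, with the mean as a line and the SD as a bar (n = 6), circles for tag letter U and triangles for V. In every panel except Acot1, DTR_PYR replicates 1, 2 and 3 do not overlap replicates 4, 5 and 6. In Kcnv2, Kcnip2, Acadl, Nppb and Cilp replicates 1, 2 and 3 lie near DTR_PBS and the others nearer WT.

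The protein-coding genes of the mitochondrial genome had the highest median of the gene lists. Of 13 such genes 12 passed the filter, and all 12 had interactions above 0, with a median of 1.42 against 0.03 over all genes. At an unadjusted p under 0.05 there were 10 of 12, against 5.84% of all genes in that direction, and 0 of them had an adjusted p under 0.05. mt-Atp8, a subunit of ATP synthase at 7766 to 7969 on the mitochondrial genome, was at 231, 1322 and 3393 CPM at the lowest, median and highest in WT_PBS, 382, 532 and 611 in WT_PYR, 286, 481 and 1021 in DTR_PBS and 296, 1180 and 3557 in DTR_PYR. The WT_PYR and DTR_PBS libraries lay inside the range of WT_PBS, and so did 5 of the 6 DTR_PYR libraries. Its log2 interaction was 2.92 (1.38 to 4.47), with drug effects of 1.42 in injured and −1.50 in uninjured hearts; mt-Atp8 overlaps mt-Atp6, whose interaction was 2.25.

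The abundant members had smaller interactions: mt-Nd1, a core subunit of complex I, had 1.30 (0.34 to 2.27), mt-Co1, the catalytic subunit of complex IV, 1.21 (0.07 to 2.35), and mt-Cytb, of complex III, 1.05 (0.01 to 2.09). mt-Co3, at 3.01, was counted at a mean of only 1.94 CPM. The share of reads from the mitochondrial genome, which these genes make up in part, was 14.4% ± 6.87 in WT_PBS, 10.6% ± 1.5 in WT_PYR, 7.13% ± 1.60 in DTR_PBS and 10.2% ± 5.56 in DTR_PYR (SD, n = 6). The interaction of that share was 6.87 percentage points (exact two-sided permutation p 0.0702 over 853776 arrangements, adjusted 0.211). The list median was −0.14 within U and 2.04 within V libraries, and 0.30 without DTR_PYR 4, 5 and 6. Total-count scaling gave 1.12.

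Genes for fatty acid oxidation, the main source of energy of the adult heart, had positive interactions in 25 of 27 members, with a median of 0.79. At an unadjusted p under 0.05 there were 18 positive members and 0 negative ones, against 5.84% and 2.13% of all genes. Of the list, 0 had an adjusted p under 0.05. Acadl, the long-chain acyl-CoA dehydrogenase (chromosome 1, 66830839 to 66863277), was at 783, 846 and 1033 CPM at the lowest, median and highest in WT_PBS, 551, 666 and 817 in WT_PYR, 229, 285 and 496 in DTR_PBS and 306, 489 and 700 in DTR_PYR. DTR_PBS lay below both WT groups, and DTR_PYR overlapped both DTR_PBS and WT_PYR. The log2 interaction was 1.05 (0.45 to 1.64, edgeR adjusted p 0.486), with a drug effect of 0.67 in injured and −0.37 in uninjured hearts, and it was 0.91 within U and 0.95 within V libraries. Decr1, which handles unsaturated fatty acids, had 1.08, Cpt1b, the carrier step into mitochondria, 0.97, Ppara, the transcription factor of this programme, 1.06, and the uncoupling protein gene Ucp3 1.60. The list median was 0.37 within U, 0.93 within V, 0.58 under total-count scaling and 0.09 without DTR_PYR 4, 5 and 6.

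The neighbouring steps of energy metabolism had interactions in the same direction and of smaller size. All 19 members of the citric acid cycle and pyruvate entry list were above 0 with a median of 0.57. An unadjusted p under 0.05 was reached by 5 of the 19, against 5.84% of all genes in that direction. Among the 5 were Suclg2, a subunit of succinyl-CoA ligase, at 0.75 (0.19 to 1.31) and Pdhb, of the pyruvate dehydrogenase complex, at 0.85 (0.13 to 1.56). All 39 nuclear-encoded respiratory chain genes were above 0 with a median of 0.52. An unadjusted p under 0.05 was reached by 10 of the 39, against the same 5.84%. Ndufs1, a subunit of complex I, had medians of 440, 352, 150 and 219 CPM in WT_PBS, WT_PYR, DTR_PBS and DTR_PYR and an interaction of 1.11 (0.42 to 1.80). Cycs, cytochrome c, had medians of 91.7, 65.0, 48.2 and 67.0 CPM and 1.30 (0.37 to 2.24). In Ndufs1 and in Cycs the drug effect was negative in uninjured hearts, at −0.38 and −0.62, and positive in injured ones, at 0.73 and 0.68.

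Glycolysis had 17 of 22 members above 0 with a median of 0.19. Against 5.84% of all genes in that direction, 2 of the 22 had an unadjusted p under 0.05. These were Pfkfb1, which makes an activator of phosphofructokinase, at 1.26 and Pfkl, the liver phosphofructokinase, at 0.66. Without DTR_PYR 4, 5 and 6 the medians were 0.12 for the citric acid cycle, 0.14 for the respiratory chain and 0.05 for glycolysis, and under total-count scaling 0.36, 0.33 and 0.03.

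Genes of cardiac ion handling had 28 of 29 interactions above 0 with a median of 0.62. An unadjusted p under 0.05 was reached by 9 of the 29, against 5.84% of all genes in that direction. Kcnip2, an auxiliary subunit of the channels that carry the fast transient outward potassium current, lies on chromosome 19 at 45791839 to 45816061. It was at 254, 331 and 374 CPM at the lowest, median and highest in WT_PBS, 264, 324 and 454 in WT_PYR, 5.6, 22 and 51.9 in DTR_PBS and 13.9, 80.2 and 189 in DTR_PYR. Both DTR groups lay below both WT groups, and they overlapped each other. DTR_PYR 1, 2 and 3 were at 36.2, 13.9 and 35.1 CPM and DTR_PYR 4, 5 and 6 at 189, 135 and 124 CPM. The interaction was 1.72 (0.38 to 3.06), nearly all of it from a drug effect of 1.76 in injured hearts against 0.04 in uninjured ones. Kcnj3, a subunit of the potassium channel that acetylcholine opens through the M2 receptor, had medians of 24.1, 20.2, 6.28 and 12.9 CPM and an interaction of 2.07 (0.63 to 3.51), and its partner subunit Kcnj5 had 0.66 (0.09 to 1.22). For Kcnj3 the value was 0.34 within U and 2.29 within V libraries. Its levels were 2.80, 2.96 and 7.80 CPM in DTR_PYR 1, 2 and 3. They were 30.6, 38.1 and 17.9 CPM in DTR_PYR 4, 5 and 6.

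The calcium-handling genes of the same list had Atp2a2, the calcium pump of the sarcoplasmic reticulum, at 0.91 (0.16 to 1.67), its inhibitor Pln at 1.18 (0.11 to 2.24), and Cacna1c, the pore of the L-type calcium channel, at 0.72 (0.03 to 1.41). The list median was 0.45 within U, 0.78 within V and 0.43 under total-count scaling, and 0.07 without DTR_PYR 4, 5 and 6. Sarcomere genes had 19 of 22 members above 0 and a median of 0.36, with 0 at an unadjusted p under 0.05. Myh6 was at 30998, 33386 and 34823 CPM at the lowest, median and highest in WT_PBS, 26208, 36404 and 37253 in WT_PYR, 4290, 14105 and 21230 in DTR_PBS, and 8118, 22979 and 30463 in DTR_PYR, with an interaction of 0.63 (−0.34 to 1.60). Myl2 was at 1072 to 2992 CPM in DTR_PBS. In DTR_PYR 1, 2 and 3 it was at 2615, 1788 and 3024 CPM, and in DTR_PYR 4, 5 and 6 at 3333, 3214 and 2795 CPM. All DTR libraries thus lay below the WT minimum of 6854 CPM, DTR_PYR 4, 5 and 6 included. The interaction of Myl2 was 0.38 (−0.25 to 1.02). For both genes the interval included 0, and the sarcomere median was 0.12 without DTR_PYR 4, 5 and 6.

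Cardiac stress and fetal genes had 15 of 17 interactions below 0, with a median of −0.50 and 1 negative member, Cilp, at an unadjusted p under 0.05 (2.13% of all genes). Nppb, the B-type natriuretic peptide made by strained ventricular myocytes, lies on chromosome 4 at 147985788 to 147987205. It was at 141, 207 and 255 CPM at the lowest, median and highest in WT_PBS, 141, 233 and 380 in WT_PYR, 2181, 2550 and 3426 in DTR_PBS and 332, 1702 and 3185 in DTR_PYR. DTR_PYR ran from within the WT_PYR range to within the DTR_PBS range: replicates 1, 2 and 3 were at 3185, 3136 and 2763 CPM and replicates 4, 5 and 6 at 332, 413 and 640 CPM. The interaction was −0.86 (−2.05 to 0.33, edgeR adjusted p 0.689), and it was 0.11 within U and −1.78 within V libraries. Nppa, the A-type peptide, had −0.67 (−1.85 to 0.51), and Xirp2, a protein of the intercalated disc, −1.08 (−2.28 to 0.12). Myh7, the fetal myosin heavy chain, was above 0 at 0.50 (−0.79 to 1.79), but at −0.29 without DTR_PYR 6. The list median was 0.28 within U, −1.31 within V and 0.14 without DTR_PYR 4, 5 and 6.

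**Figure D4:**
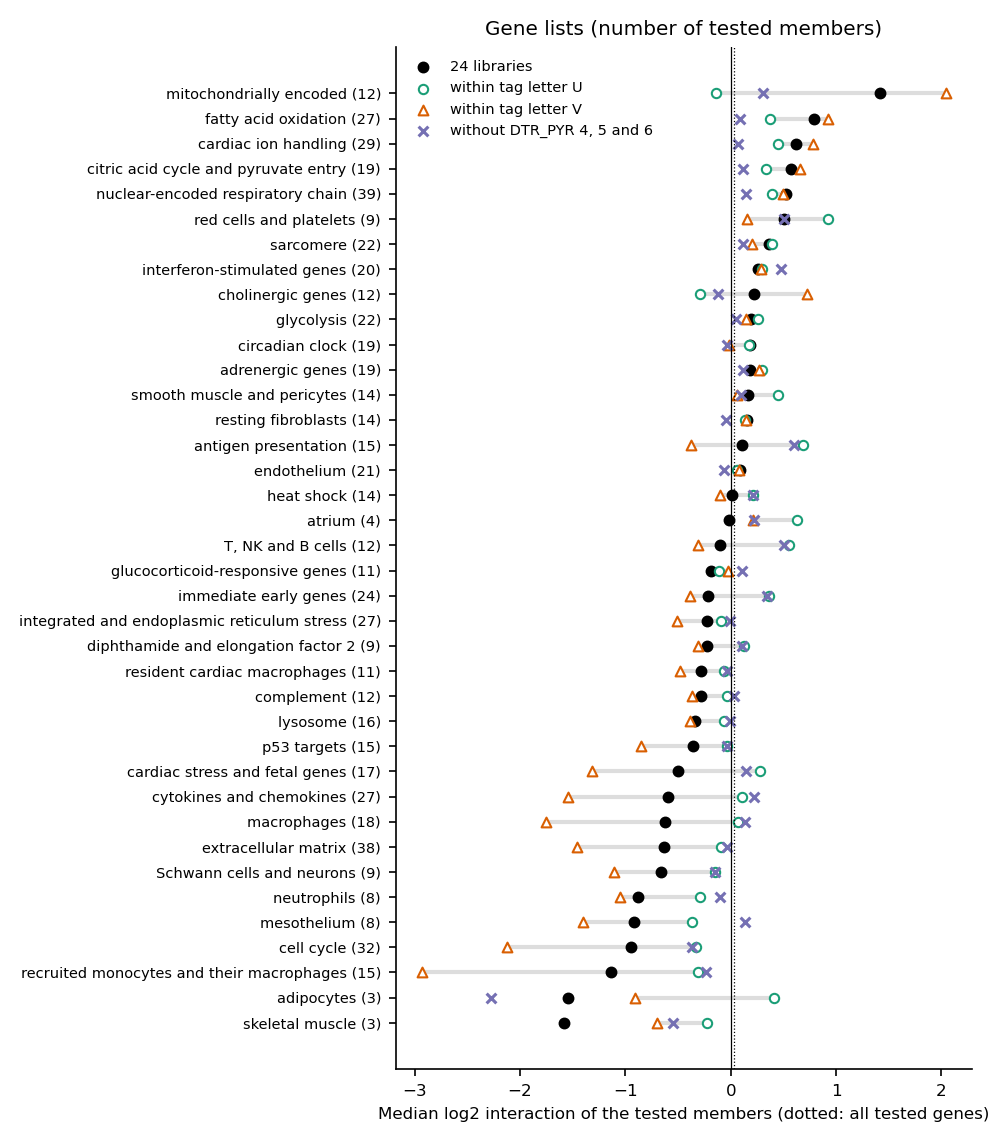
The median log2 interaction of each of 38 gene lists (number of tested members in parentheses) with all 24 libraries, within tag letter U, within tag letter V, and without DTR_PYR 4, 5 and 6; the dotted line is the median of all tested genes. The lists of mitochondrial energy metabolism at the top and of matrix, monocytes and cell division near the bottom lie closer to 0 in U libraries and without DTR_PYR 4, 5 and 6 than with all libraries.

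Genes of the extracellular matrix had 34 of 38 interactions below 0 with a median of −0.63. Against 2.13% of all genes in that direction, 4 of the 38 had an unadjusted p under 0.05. These were Fbn1, the fibrillin of elastic microfibrils, at −0.87 (−1.59 to −0.15), Postn, periostin of activated fibroblasts, at −1.15 (−2.24 to −0.07), Col8a1 at −1.04 and Col6a3 at −0.55. Postn was at 5.85, 17.5 and 27.7 CPM at the lowest, median and highest in WT_PBS, 7.03, 17.4 and 24.7 in WT_PYR, 77.8, 123 and 254 in DTR_PBS and 26.3, 64.1 and 103 in DTR_PYR. DTR_PYR 1, 2 and 3 were at 93.0, 103 and 81.1 CPM, within the DTR_PBS range. DTR_PYR 4, 5 and 6 were at 28.8, 47.1 and 26.3 CPM, below that range, and the lowest of them overlapped WT_PBS. Col1a1, the main fibrillar collagen, had an interaction of −0.64 (−1.86 to 0.58) and the inhibitor of metalloproteinases Timp1 −0.52 (−2.62 to 1.58). Spp1, osteopontin, had −1.67 (−4.63 to 1.29), with DTR_PYR libraries from 4.04 to 646 CPM, and limma voom gave it −3.80. The list median was −0.09 within U, −1.46 within V and −0.03 without DTR_PYR 4, 5 and 6.

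Markers of resting fibroblasts had 11 of 14 interactions above 0 with a median of 0.15, which was −0.03 under total-count scaling and −0.05 without DTR_PYR 4, 5 and 6. Scara5, a ferritin receptor of resting fibroblasts, had medians of 30.1, 20.7, 7.68 and 11 CPM in WT_PBS, WT_PYR, DTR_PBS and DTR_PYR and an interaction of 1.61 (0.62 to 2.61). Mfap5, a microfibril protein on the same list, went the other way at −0.78 (−1.54 to −0.02).

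Immune genes had mostly negative interactions with wide intervals. All 18 macrophage genes were below 0 with a median of −0.63, and 0 had an unadjusted p under 0.05. Of the 15 genes of recruited monocytes and the macrophages they become, 14 were below 0, with a median of −1.14. Against 2.13% of all genes in that direction, 3 of the 15 had an unadjusted p under 0.05. Those were Vcan, a proteoglycan, at −1.25 (−2.24 to −0.26), Mmp12, the macrophage elastase, at −1.48 (−2.66 to −0.30) and S100a4 at −1.66. Ccr2, the chemokine receptor that brings monocytes out of the marrow, was at 0.356, 1.90 and 4.07 CPM at the lowest, median and highest in WT_PBS, 0.732, 1.74 and 4.03 in WT_PYR, 11.6, 24.5 and 116 in DTR_PBS and 2.16, 7.27 and 29.4 in DTR_PYR. DTR_PYR overlapped every other group. The interaction of Ccr2 was −1.86 (−3.84 to 0.12, edgeR adjusted p 0.634), with U and V values of −0.97 and −3.36.

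Resident cardiac macrophage genes had 8 of 11 members below 0 and a median of −0.28, or −0.04 without DTR_PYR 4, 5 and 6. The folate receptor Folr2 and the clotting factor subunit F13a1 were both at −0.56. The macrophage and recruited monocyte medians were 0.07 and −0.31 within U and −1.75 and −2.93 within V libraries, and 0.13 and −0.24 without DTR_PYR 4, 5 and 6. limma voom gave −1.29 and −2.18 with all libraries. The summed level of the recruited monocyte genes was 66.6 to 133 CPM in WT_PBS, 58.8 to 118 in WT_PYR, 378 to 1527 in DTR_PBS and 110 to 1354 in DTR_PYR.

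Cytokines and chemokines had 24 of 27 interactions below 0 with a median of −0.59. The sign of that median differed with the libraries used: it was 0.11 within U and −1.55 within V libraries, 0.22 without DTR_PYR 4, 5 and 6, and −1.67 with all libraries by limma voom. Il1b was at 0.540, 2.12 and 10.7 CPM at the lowest, median and highest in DTR_PYR and at 5.41, 7.50 and 12.8 in DTR_PBS, with at most 1.07 CPM in a WT library, and its interaction was −0.70 (−2.66 to 1.25). Tnf was at most 1.78 CPM in WT, 1.5 to 3.99 in DTR_PBS and 0.280 to 7.10 in DTR_PYR, with an interaction of −0.23 (−1.92 to 1.45) that was 0.09 without WT_PYR 1. Il6 was at 0.973 to 5.45 CPM in DTR_PBS and 0.0280 to 5.46 in DTR_PYR, and some WT libraries had 0 reads. In Tnf and Il6 the DTR_PYR libraries spanned the whole range of DTR_PBS, and in Il1b they overlapped it and reached lower. Without DTR_PYR 4, 5 and 6 the interactions of Il1b and Tnf were 0.32 and 0.69. Lif, a cytokine of the interleukin 6 family, had −1.79 (−3.72 to 0.14) and the chemokine Ccl9 −1.43 (−3.14 to 0.28).

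Of the other immune lists, neutrophil genes had 7 of 8 tested members below 0 and a median of −0.88, with Csf3r, the receptor for the granulocyte growth factor, at −1.51 (−2.99 to −0.02). The neutrophil median was −0.29 within U, −1.06 within V and −0.10 without DTR_PYR 4, 5 and 6. Ly6g, Camp, Ngp, Elane and Mpo were below the filter. T, NK and B cell genes had a median of −0.11 over 12 tested of 19, with Cd3d, Cd3g and Foxp3 among those below the filter. It was 0.55 within U, −0.31 within V, 0.50 without DTR_PYR 4, 5 and 6 and 0.19 without WT_PBS 6 and WT_PYR 1. Complement genes had a median of −0.28 and lysosomal genes −0.34, which were 0.03 and −0.01 without DTR_PYR 4, 5 and 6. Interferon-stimulated genes had a median of 0.26 with 14 of 20 above 0, and antigen presentation 0.10, which was −0.03 under total-count scaling and −0.15 by limma voom. Without DTR_PYR 4, 5 and 6 these 2 medians were 0.48 and 0.60, and antigen presentation had 0.68 within U and −0.38 within V libraries.

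Cell division and stress genes formed the other negative groups. All 32 cell cycle genes were below 0 with a median of −0.94. An unadjusted p under 0.05 was reached by 3 of the 32, against 2.13% of all genes in that direction. Cdk1, the kinase that drives entry into mitosis, was at 0.214, 0.585 and 1.45 CPM at the lowest, median and highest in WT_PBS, 0.293, 1.11 and 1.88 in WT_PYR, 2.14, 6.48 and 18.4 in DTR_PBS and 1.12, 1.95 and 9.77 in DTR_PYR. All of DTR_PBS lay above the WT groups, and DTR_PYR overlapped them. Its interaction of −2.38 (−4.06 to −0.71, edgeR adjusted p 0.563) held a drug effect of −1.76 in injured and 0.63 in uninjured hearts. The mitotic kinase Plk1 had −1.73 (−3.23 to −0.24) and the replication helicase subunit Mcm6 −1.0 (−1.95 to −0.04). The list median was −0.33 within U, −2.13 within V and −0.37 without DTR_PYR 4, 5 and 6.

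Targets of p53 had 12 of 15 members below 0 and a median of −0.36, or −0.03 without DTR_PYR 4, 5 and 6. Cdkn1a, the cell cycle inhibitor p21, had an interaction of −0.69 (−2.04 to 0.66), with DTR_PYR from 33.7 to 695 CPM against 372 to 796 in DTR_PBS and at most 40.5 in WT. Genes of the integrated and endoplasmic reticulum stress responses had 19 of 27 below 0 and a median of −0.23, or −0.01 without those libraries. Slc7a11, the cystine transporter, had −1.82 (−3.16 to −0.48) at medians of 0.715, 0.876, 2.68 and 1.16 CPM. The diphthamide list, on the modified residue of elongation factor 2 that diphtheria toxin attacks, had a median of −0.23, with 4 of 9 above 0, and a median of 0.11 without DTR_PYR 4, 5 and 6. Eef2k, the kinase of elongation factor 2, had 0.57 (0.14 to 1.0).

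Genes of acetylcholine signalling, the pathway the drug acts on, showed no interaction that passed the test, and most of them were too low to be tested. Of 31 cholinergic genes 12 passed the filter, and those below it included Chat, which makes acetylcholine, its vesicle transporter Slc18a3, and Chrna7, the nicotinic receptor subunit of macrophages. Of the 12, 8 were above 0 and 4 below, with a median of 0.22, which was −0.01 under total-count scaling, −0.29 within U, 0.73 within V libraries and −0.12 without DTR_PYR 4, 5 and 6.

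The enzymes that pyridostigmine blocks are encoded by Ache and Bche. Ache was at 2.36, 3.68 and 6.37 CPM at the lowest, median and highest in WT_PBS, 3.37, 4.45 and 6.39 in WT_PYR, 1.14, 2.57 and 3.75 in DTR_PBS and 1.18, 3.40 and 4.27 in DTR_PYR. All 4 groups overlapped, and the interaction was 0.09 (−0.81 to 1.0), or −0.09 under total-count scaling. Bche was at 3.49, 6.22 and 17.5 CPM in WT_PBS, 2.21, 6.76 and 11.6 in WT_PYR, 2.67, 4.28 and 5.35 in DTR_PBS and 0.888, 8.58 and 18.6 in DTR_PYR. The DTR_PYR libraries spread over the widest range of the 4 groups. Bche had an interaction of 1.54 (0.17 to 2.90, edgeR adjusted p 0.599), which was −0.26 within U and 2.09 within V libraries.

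Chrm2, the cardiac muscarinic receptor, was at 43.2, 86.0 and 141 CPM at the lowest, median and highest in WT_PBS, 30.3, 88.1 and 118 in WT_PYR, 97.0, 117 and 164 in DTR_PBS and 94.1, 119 and 142 in DTR_PYR. Its interaction was 0.03 (−0.69 to 0.75), the interval lay within −1 to 1, and the value was −0.21 under total-count scaling. Lynx1, a membrane protein that dampens nicotinic receptors, had medians of 437, 457, 117 and 211 CPM and an interaction of 0.68 (−0.05 to 1.40). In Lynx1 both DTR groups reached lower than both WT groups, and the highest DTR_PYR library, at 339 CPM, overlapped WT_PBS.

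Adrenergic genes, which serve the opposing branch of autonomic control, had 14 of 19 tested members above 0. Their median was 0.18, or 0.12 without DTR_PYR 4, 5 and 6. An unadjusted p under 0.05 was reached by 4 positive members, against 5.84% of all genes in that direction. Maob, which degrades monoamines in mitochondria, was at 30.4, 39.4 and 56.3 CPM at the lowest, median and highest in WT_PBS, 25.8, 33.8 and 40.2 in WT_PYR, 5.84, 10.1 and 17.1 in DTR_PBS and 10.1, 21.6 and 36.5 in DTR_PYR. DTR_PBS lay below both WT groups, and DTR_PYR overlapped all 3. DTR_PYR 1, 2 and 3 were at 11.3, 10.1 and 12.9 CPM and DTR_PYR 4, 5 and 6 at 32.4, 36.5 and 30.4 CPM. The interaction of Maob was 1.38 (0.54 to 2.22, edgeR adjusted p 0.512), with similar U and V values of 1.05 and 1.52. The receptors Adra2b and Adra2c had 2.25 and 3.08 at means of 0.978 and 0.473 CPM, and Ddc, of catecholamine synthesis, 1.05 (0.08 to 2.01). Adrb1, the main cardiac beta receptor, had 0.51 (−0.15 to 1.16).

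Immediate early genes had 15 of 24 interactions below 0 and a median of −0.22, but Nr4a1, a nuclear receptor induced by many stimuli, was at 1.44 (0.46 to 2.43, edgeR adjusted p 0.563). It was at 32.9, 72.0 and 129 CPM at the lowest, median and highest in WT_PBS, 14.4, 31.6 and 49.8 in WT_PYR, 33.8, 77.6 and 134 in DTR_PBS and 57.7, 84.2 and 144 in DTR_PYR. WT_PYR was the low group, so that the drug effect was −1.27 in uninjured and 0.18 in injured hearts. The U and V values were 1.39 and 1.54. The immediate early median was 0.36 within U, −0.39 within V and 0.34 without DTR_PYR 4, 5 and 6. Among clock genes, whose median was 0.19, or −0.05 under total-count scaling and −0.03 without DTR_PYR 4, 5 and 6, the repressor Nr1d1 had −1.37 (−2.47 to −0.27) and Clock −0.81 (−1.60 to −0.02). Nr1d1 ran from 146 to 1526 CPM within DTR_PBS alone; no label gives the hour at which hearts were taken. Heat shock genes had a median of 0.01, or −0.16 under total-count scaling and 0.22 without DTR_PYR 4, 5 and 6, and the mitochondrial chaperone gene Hspe1 had 0.89 (0.18 to 1.60).

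Markers of other cells of the heart had smaller or less certain values. Endothelial genes had 15 of 21 interactions above 0 and 6 below, from −0.63 to 0.58, against 53.2% above 0 over all genes. Their median was 0.09, or −0.10 under total-count scaling. The receptors Tie1 and Kdr had 0.38 and 0.58, but −0.0010 and −0.14 without DTR_PYR 4, 5 and 6. Smooth muscle and pericyte genes had 8 of 14 interactions above 0 and 6 below. Their median was 0.16, or −0.03 under total-count scaling. Without DTR_PYR 4, 5 and 6 the endothelial median was −0.07 and the smooth muscle and pericyte median 0.1. Abcc9, a subunit of the potassium channel that senses ATP, had 1.06 (0.20 to 1.93) and is also made by cardiomyocytes. It was the highest member of the smooth muscle and pericyte list, whose lowest was at −0.54. Mesothelial genes had a median of −0.92 over 8 genes, with sums of 4.80 to 76.3 CPM over the 24 libraries. The mesothelial median was 0.14 without DTR_PYR 4, 5 and 6, −0.35 without WT_PBS 6 and WT_PYR 1, and −0.37 within U and −1.40 within V libraries. Schwann cell and neuron genes had a median of −0.66 with 9 of 9 tested members below 0, and −0.15 without DTR_PYR 4, 5 and 6. Red cell and platelet genes had a median of 0.51 with and without those libraries; the near-identical beta-globin genes Hbb-bs and Hbb-bt had 1.11 and 1.33. Only 3 members each of the adipocyte and skeletal muscle lists passed the filter, with Adipoq, Lep, Myh1 and Myh4 below it. Their medians were −1.54 and −1.58, and −2.27 and −0.55 without DTR_PYR 4, 5 and 6. The part of other cell types and of mitochondrial read share in the interaction was not tested.

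Within the U libraries 0 genes were called (0%; edgeR smallest adjusted p 1.0, 496 genes at an unadjusted p under 0.05) and within the V libraries 0 (0%; smallest 0.298, 1793 genes). The difference between the V and U interactions, tested in the same model, called 0 genes (0%; smallest 0.418, 892 genes). The V result turned on 1 library. Without DTR_PYR 3, the V library that lay with DTR_PBS, the V interaction was called for 470 of 15456 genes. Of these, 132 were positive and 338 negative, with a smallest edgeR adjusted p of 0.000159. Among these, Hbegf had −2.57, Nppb −2.95 and Spp1 −7.03, and Kcnv2 had 3.82 and mt-Atp8 4.42; the drug group then held only DTR_PYR 4, 5 and 6. The V minus U difference was then called for 5 genes, Nmrk2, which makes nicotinamide mononucleotide, Hbegf, the protease gene Adamts8, Otud1 and Trp53cor1, all lower in V. These genes were named after their values were seen. DTR_PYR 4, 5 and 6 had been set apart by their first-component scores and Hbegf levels in these same data. The calls made without DTR_PYR 3 are therefore not separate support for an effect of the drug.

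Leaving out single libraries kept the count of called genes at 0 in each of 24 edgeR fits of the whole interaction, while the number at an unadjusted p under 0.05 went from 741 without DTR_PYR 5 to 2932 without DTR_PYR 2. The smallest adjusted p in these fits was 0.0611, without DTR_PYR 2, and it was 0.0766 without WT_PBS 4. Without DTR_PYR 4, 5 and 6 together there were 373 genes at an unadjusted p under 0.05, 157 positive and 216 negative, and without WT_PBS 6 and WT_PYR 1 there were 1558, 900 positive and 658 negative. Both of the latter fits were chosen after seeing the data, and both called 0 genes.

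**Figure D5:**
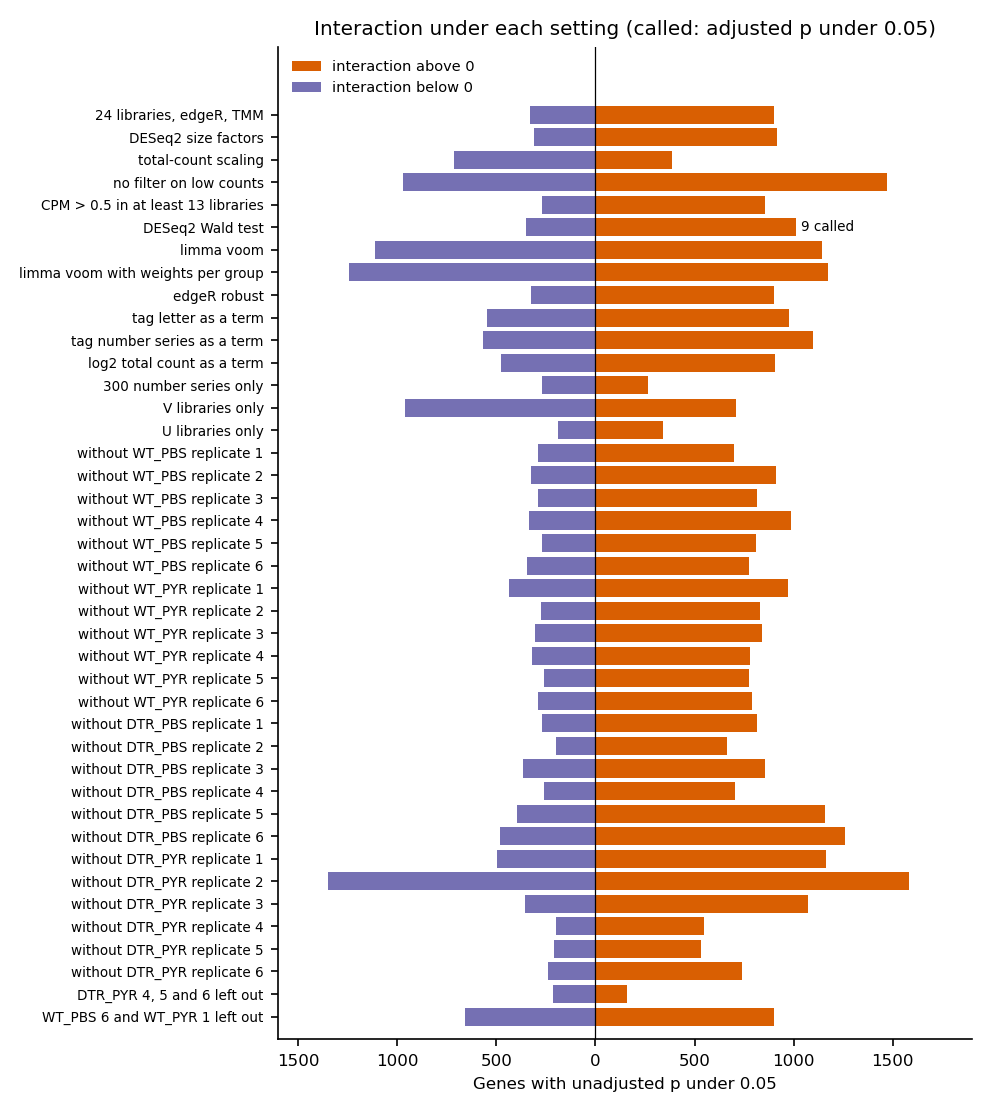
The number of genes with an unadjusted p under 0.05 and an interaction above 0 (right) or below 0 (left) under each setting. The excess of genes above 0 seen with 24 libraries turns over under total-count scaling (384 above, 715 below) and without DTR_PYR 4, 5 and 6 (157 above, 216 below), and 9 genes are called by DESeq2.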

How the data were processed

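The authors deposited unfiltered HTSeq read counts per Ensembl gene for 24 libraries, and these counts were used as deposited. Bowtie2, TopHat2 2.1.1, HTSeq and the build GRCm38 are named, without roles, in the submitters' processing notes. The RNA was polyadenylated and the reads were single-end without strand, per the labels' protocols. Of 197 genes lacking a symbol in the table, 193 were named by gene ID from GENCODE.

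The filter was a level over 0.5 CPM in 6 or more libraries. TMM scaling (trimmed mean of M-values) preceded a quasi-likelihood fit in edgeR 4.0.16 under R 4.3.3, with 1 coefficient per group and two-sided tests. "Called" means a Benjamini-Hochberg adjusted p under 0.05. Intervals are 95% intervals from the same fit. CPM in the text is TMM-scaled. Alternatives used DESeq2 1.42.0 and limma 3.58.1 voom. The script was tested on simulated data. Total counts per library (given in M reads, M for mega) set the counting precision, and p-values measure the spread between the libraries.

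The members, the 38 lists (708 genes, 646 of them tested) and the tests were chosen with earlier results of these data known. Called genes of at least 5 CPM were to be named by size. As there were none, the 10 smallest p-values in each direction were named, with up to 2 members of each list by p (at least 1 CPM) and 22 fixed genes. A few genes that the rule names are not reported here. Other genes were named after their values were seen, as examples. A list is described by its counts and median.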

Additional observations from a re-analysis of the deposited data

Results flagged for a closer look

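In each group of 6, the highest and the lowest library were checked for a gap to the next library that took more of the group's range than Dixon's 95% limit, for 107 named genes and 3 library measures. Of the 440 groups looked at, 21 had such a library, and chance alone gives about 1 in 20, or 5%. WT_PYR 1 accounted for 7 of the 21. On the log2 CPM scale it stood apart as low for Kcnv2 (2.02), Cxcr2 (−2.66, which is 0 reads), Bche (1.24) and Chrm2 (4.93), and as high for Pfkl (7.91), Slc7a5 (3.77) and Col1a1 (8.29).

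In the other uninjured hearts, Nr1d1 stood apart as low in WT_PBS 6 (6.33) and Il1b as low in WT_PBS 5 (−2.66, 0 reads). In WT_PYR, March3 was high in replicate 6 (3.07), Tsc22d3 high in replicate 2 (6.78), and C3ar1 and Slc7a11 low in replicate 4 (1.48 and −1.15).

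In DTR_PBS, mt-Ty was high in replicate 1 (3.47), mt-Co3 and Ddc were at 0 reads in replicate 4 (−2.66 each), the library with the fewest reads, Ighm was low in replicate 2 (1.79) and Tnf low in replicate 5 (0.73). In DTR_PYR, Cdk1 was high in replicate 2 (3.31). Total counts stood apart as high in DTR_PBS 1 (36.3 M reads) and DTR_PYR 5 (37.8 M reads).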

How the results depend on the processing

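For the interaction with all groups in the fit, the count of genes at an adjusted p under 0.05 was 0 under each edgeR and limma setting run, and the DESeq2 Wald test gave 9, of which 2 (Kcnv2 and mt-Co3) were members of the gene lists. Lists with a median above 0 numbered 17 of 38, or 10 under total-count scaling. Leaving out single libraries, the count of genes called within V libraries ranged from 0 to 470 and for V minus U from 0 to 5, both maxima without DTR_PYR 3. The interaction of total counts ranged from −0.43 M reads, without DTR_PYR 5, to 9.76 M. Depth limits genes of low count most: in libraries of 1.88 to 2.81 M reads a gene at 1 CPM has only a few reads. No paired analysis was possible because the titles carry animal tags and no replicate numbers. The cause of each change that follows was not tested. A list median is said to have moved where it differed from its value with all libraries by more than 1 SD of the list's mean level between libraries of a group, changed sign, or changed by over 1.5 times and at least 0.1.

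Without DTR_PYR 4, 5 and 6, the log2 interactions that changed sign were Myom2 −0.0252, Tie1 −0.0010, Kdr −0.14, Stard10 −0.17, Dkk3 0.42, Nppa 0.11 and Hbegf 0.19. The others were Chrm2 −0.0493, Il1b 0.32, Tnf 0.69, Col1a1 0.11, Timp1 0.41 and Cdkn1a 0.14. The list medians that moved were adipocytes −2.27, skeletal muscle −0.55, cell cycle −0.37, recruited monocytes −0.24, Schwann cells and neurons −0.15, cholinergic genes −0.12, neutrophils −0.10, endothelium −0.0681 and resting fibroblasts −0.0459. Further medians were resident cardiac macrophages −0.0375, circadian clock −0.0339, extracellular matrix −0.0329, p53 targets −0.0306, lysosome −0.00772, integrated and endoplasmic reticulum stress −0.00673, complement 0.0268, glycolysis 0.0512 and cardiac ion handling 0.0738. Further medians were fatty acid oxidation 0.0905, glucocorticoid-responsive genes 0.11, diphthamide and elongation factor 2 0.11, citric acid cycle and pyruvate entry 0.12, sarcomere 0.12, macrophages 0.13, mesothelium 0.14, nuclear-encoded respiratory chain 0.14 and cardiac stress genes 0.14. Further medians were heat shock 0.22, cytokines and chemokines 0.22, atrium 0.22, mitochondrially encoded 0.30, immediate early genes 0.34, interferon-stimulated genes 0.48, T, NK and B cells 0.50 and antigen presentation 0.60. With only the tag number series that U libraries of all 4 groups share, the log2 interactions that changed sign were Cycs −0.10, Mfap5 0.0734, Cd14 0.00618, Sesn2 0.15, Kdr −0.11, Bche −0.19, Myoz1 0.0761, Nppa 0.75 and Nppb 0.50. The others were Hbegf 0.17, Chrm2 −0.40, Il1b 0.39, Tnf 0.89, Col1a1 0.39, Spp1 1.38, Timp1 1.51, Arg1 1.09 and Cdkn1a 0.22. The list medians that moved were adipocytes −2.95, Schwann cells and neurons −0.30, cholinergic genes −0.29, recruited monocytes −0.17, neutrophils −0.15, lysosome −0.077, complement −0.0741, mitochondrially encoded −0.0472 and cell cycle −0.0379. Further medians were extracellular matrix 0.0837, p53 targets 0.11, diphthamide and elongation factor 2 0.14, macrophages 0.15, heat shock 0.20, citric acid cycle and pyruvate entry 0.25, fatty acid oxidation 0.26, smooth muscle and pericytes 0.32 and nuclear-encoded respiratory chain 0.33. Further medians were cytokines and chemokines 0.35, cardiac ion handling 0.41, atrium 0.46, cardiac stress genes 0.47, immediate early genes 0.49, circadian clock 0.51, T, NK and B cells 0.77, antigen presentation 0.84 and red cells and platelets 0.94. With a fit of the U libraries alone, the log2 interactions that changed sign were Hspd1 −0.00283, Bche −0.26, Dkk3 0.12, Myoz1 0.99, Nppa 0.28, Nppb 0.11 and Hbegf 0.21. The others were Chrm2 −0.32, Il1b 0.27, Tnf 0.97, Col1a1 0.25, Timp1 0.90, Arg1 0.21 and Cdkn1a 0.20. The list medians that moved were mesothelium −0.36, cell cycle −0.33, recruited monocytes −0.31, cholinergic genes −0.29, neutrophils −0.29, skeletal muscle −0.21, Schwann cells and neurons −0.15, mitochondrially encoded −0.14, integrated and endoplasmic reticulum stress −0.10 and extracellular matrix −0.0889. Further medians were lysosome −0.062, resident cardiac macrophages −0.058, p53 targets −0.0378, complement −0.033, macrophages 0.0721, cytokines and chemokines 0.11, diphthamide and elongation factor 2 0.13, heat shock 0.22, cardiac stress genes 0.28 and adrenergic genes 0.30. Further medians were citric acid cycle and pyruvate entry 0.34, immediate early genes 0.36, fatty acid oxidation 0.37, adipocytes 0.41, smooth muscle and pericytes 0.45, T, NK and B cells 0.53, atrium 0.63, antigen presentation 0.68 and red cells and platelets 0.91. With a fit of the V libraries alone, the log2 interaction of Ache was −0.17, a change of sign. The list medians that moved were recruited monocytes −2.97, cell cycle −2.17, macrophages −1.79, cytokines and chemokines −1.61, extracellular matrix −1.49, mesothelium −1.39, cardiac stress genes −1.34, Schwann cells and neurons −1.15 and adipocytes −0.96. Further medians were p53 targets −0.88, skeletal muscle −0.76, integrated and endoplasmic reticulum stress −0.54, resident cardiac macrophages −0.53, immediate early genes −0.42, antigen presentation −0.41, T, NK and B cells −0.37, diphthamide and elongation factor 2 −0.36 and heat shock −0.14. Further medians were circadian clock −0.0596, glucocorticoid-responsive genes −0.0543, smooth muscle and pericytes 0.0186, red cells and platelets 0.12, sarcomere 0.16, atrium 0.17 and cholinergic genes 0.68. Under total-count scaling, the log2 interactions that changed sign were Ache −0.0857 and Chrm2 −0.21. The list medians that moved were resident cardiac macrophages −0.52, lysosome −0.51, complement −0.43, diphthamide and elongation factor 2 −0.41, integrated and endoplasmic reticulum stress −0.41, glucocorticoid-responsive genes −0.37, immediate early genes −0.35 and T, NK and B cells −0.34. Further medians were atrium −0.19, heat shock −0.16, endothelium −0.10, circadian clock −0.0539, resting fibroblasts −0.0296, antigen presentation −0.0277, smooth muscle and pericytes −0.0268 and cholinergic genes −0.00807. Further medians were adrenergic genes 0.0113, glycolysis 0.03, interferon-stimulated genes 0.0754, sarcomere 0.20, nuclear-encoded respiratory chain 0.33 and citric acid cycle and pyruvate entry 0.36. With the tag number series as a term, the log2 interaction of Dkk3 was 0.0416, a change of sign. Without WT_PBS 6 and WT_PYR 1, the log2 interactions that changed sign were Chrm2 −0.33 and Tnf 0.32. The list medians that moved were adipocytes −0.55, cytokines and chemokines −0.37, mesothelium −0.35, cardiac stress genes −0.31, glucocorticoid-responsive genes −0.29, lysosome −0.22, diphthamide and elongation factor 2 −0.12 and complement −0.10. Further medians were circadian clock −0.0883, T, NK and B cells 0.19, resting fibroblasts 0.30, adrenergic genes 0.31, glycolysis 0.32, antigen presentation 0.42 and atrium 0.51. With limma voom, the list medians that moved were mesothelium −2.87, recruited monocytes −2.18, cytokines and chemokines −1.67, cell cycle −1.62, macrophages −1.29, cardiac stress genes −1.02, adipocytes −0.69, p53 targets −0.62, T, NK and B cells −0.51 and complement −0.42. Further medians were integrated and endoplasmic reticulum stress −0.39, immediate early genes −0.38, glucocorticoid-responsive genes −0.29, atrium −0.23, antigen presentation −0.15, heat shock −0.00655, interferon-stimulated genes 0.0883, cholinergic genes 0.37, adrenergic genes 0.49 and red cells and platelets 0.84. With limma voom and group weights, the list medians that moved were mesothelium −2.92, recruited monocytes −2.19, cytokines and chemokines −1.68, cell cycle −1.62, macrophages −1.30, cardiac stress genes −1.04, adipocytes −0.66, p53 targets −0.62, T, NK and B cells −0.52 and complement −0.43. Further medians were integrated and endoplasmic reticulum stress −0.39, immediate early genes −0.39, glucocorticoid-responsive genes −0.29, atrium −0.23, antigen presentation −0.16, heat shock −0.0061, interferon-stimulated genes 0.0873, cholinergic genes 0.38, adrenergic genes 0.50 and red cells and platelets 0.84. With the filter of 0.5 CPM in at least 13 libraries, the list medians that moved were skeletal muscle −0.68, T, NK and B cells −0.32, cholinergic genes 0.34 and adipocytes 0.72. With the DESeq2 Wald test, the list median that moved was atrium 0.12. With no filter on low counts, the list median that moved was atrium 0.0262. With the tag letter as a term, the list median that moved was antigen presentation −0.0567.

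Over the fits that left out 1 library each, the interaction ranged from −0.31 to 0.20 for Dkk3, −0.29 to 0.77 for Myh7, −0.11 to 0.25 for Ache, −0.15 to 0.17 for Chrm2 and −0.86 to 0.0865 for Tnf. The sign of these 5 changed with the library left out. The list medians whose sign changed ranged from −0.44 (without WT_PBS 1) to 0.13 for T, NK and B cells, −0.17 (without DTR_PYR 1) to 0.32 for antigen presentation, −0.0207 to 0.13 (without DTR_PYR 4) for heat shock and −0.15 to 0.40 (without WT_PYR 1) for atrium. Those that moved and kept their sign ranged from −0.82 (without DTR_PYR 2) to −0.28 for cardiac stress genes, 0.064 (without DTR_PBS 1) to 0.30 for glycolysis, −1.17 (without DTR_PYR 2) to −0.48 for extracellular matrix, −1.33 (without DTR_PYR 2) to −0.42 for macrophages, −1.68 to −0.57 (without DTR_PBS 1) for recruited monocytes and −1.34 (without DTR_PYR 2) to −0.36 for cytokines and chemokines. For others the range was 0.12 (without DTR_PYR 2) to 0.39 for interferon-stimulated genes, −0.57 (without DTR_PYR 2) to −0.14 for complement, −0.68 (without DTR_PYR 2) to −0.17 for lysosome, −1.50 (without DTR_PYR 2) to −0.62 for cell cycle, −0.47 to −0.18 (without DTR_PYR 6) for p53 targets and −0.48 (without DTR_PYR 2) to −0.18 for integrated and endoplasmic reticulum stress. The remaining ranges were −0.41 (without DTR_PYR 3) to −0.0606 for immediate early genes, 0.0211 (without DTR_PBS 1) to 0.28 for circadian clock, −0.38 (without DTR_PYR 3) to −0.0453 for glucocorticoid-responsive genes, 0.0631 to 0.29 (without DTR_PBS 5) for smooth muscle and pericytes, 0.0577 to 0.32 (without DTR_PBS 6) for adrenergic genes and −0.33 to −0.10 (without DTR_PBS 1) for diphthamide and elongation factor 2. The remaining ranges were 0.0741 to 1.07 (without WT_PYR 3) for red cells and platelets, −2.01 to −0.32 (without DTR_PBS 5) for adipocytes, −1.62 (without DTR_PYR 2) to −0.50 for mesothelium and −1.84 to −0.84 (without WT_PYR 3) for skeletal muscle. The library named is the one whose absence moved the median furthest.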
